A study of Mus musculus with 6 samples.

Results

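The 10 genes described here encode transcription factors of lymphoid fate: the E proteins Tcf3, Tcf4 and Tcf12, the Ikaros family members Ikzf1, Ikzf2 and Ikzf3, and Bcl11a, Satb1, Ebf1 and Lef1. They were taken by symbol from a named list, 10 of the 21851 genes measured, and all 10 were found. Their RNA was compared between hematopoietic stem cells (HSCs) of mice exposed to ionizing radiation (IR, 3 libraries) and of control mice (Ctrl, 3 libraries), all of wild-type genotype. The cells came from bone marrow and were sorted as Lineage- Flt3- CD48- and as positive for CD150, c-Kit and Sca-1. The sources used here do not give the radiation dose, the time after exposure, the age of the mice or how many were pooled. The labels number the libraries as replicates without saying that they came from separate mice, so p-values here measure the spread between libraries alone, and that spread may be technical.

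E proteins are basic helix-loop-helix factors that bind E-box sequences (CANNTG) as dimers. They open early lymphoid genes for transcription, and Id proteins, which lack the DNA-binding basic region, pair with them and keep them off DNA. Ikaros factors are zinc finger proteins that act with chromatin-remodelling corepressors and are needed for lymphoid priming of stem and progenitor cells. Satb1 organizes chromatin and promotes the lymphoid potential of HSCs, Bcl11a is required for B cell development and silences fetal globin, Ebf1 specifies the B lineage, and Lef1 carries Wnt signals in early B and T cells.

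The short stretches below show the E-box letters that bear on this group. The letters CAGGTG and CAGCTG, forms of the E-box that E proteins bind, were searched on both strands in the 250 bases before the most upstream RefSeq start of each gene (GRCm38.p6). Of 27025 promoters, 27.4% held at least 1 of them. Promoters of 7 of the 10 factors were in the RefSeq table used, and 1 of these 7, that of Tcf12, held a match. Of 16 promoters of lymphoid genes known as targets of E proteins, Ikaros or EBF1, 8 held a match, and the stretches below are those of the target genes that were also tested, 1 match each for Blnk, Vpreb1 and Cd79a and the match nearest to the start for Igll1. The capitals mark the matched letters, CACCTG being CAGGTG on the other strand. They stand at Tcf12 chr9:72112040-72112069, Blnk chr19:40994364-40994393, Igll1 chr16:16863986-16864015 and Vpreb1 chr16:16869326-16869355, all on the minus strand, and Cd79a chr7:24897331-24897360 on the plus strand.
Tcf12: agatgctgccCAGCTGcgtccccgtcgcgg
Blnk: aacctggcaacaCACCTGatcataaaagag
Igll1: ctggggtttggctacacagatcCACCTGca
Vpreb1: atgacgttccagCAGGTGcttcctcccaga
Cd79a: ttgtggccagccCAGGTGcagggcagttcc
The same 250 bases were searched for the core letters of Ikaros sites, TGGGAA, and of LEF and TCF sites, CTTTGAA. The Ikaros letters stood in 1 of the 7 promoters of the factors, that of Bcl11a, against 21.5% of all promoters, and the LEF and TCF letters in 0 of the 7, against 4.63% of all promoters. The Bcl11a stretch, chr11:24080445-24080694, lies inside the annotated gene, which starts at 24078056, and overlaps an annotated exon. Among the 7 stretches of the factors only that of Ikzf1 overlapped no annotated exon. A match of letters is a description and not a binding site.

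Of the 10 factors 7 were tested, and 5 of these carried less RNA in IR HSCs: Satb1, Tcf4, Tcf12, Bcl11a and Ikzf1. None of the 7 rose. Among all genes tested 28.9% fell and 25.8% rose. Satb1 and Tcf4 lost the most, with means of 61.7% and 62.5% of the Ctrl level. Tcf3, the most abundant E protein gene, averaged 41.8 FPKM in both groups and was not called, nor was Ikzf2. Ikzf3, Ebf1 and Lef1 were too low to test.

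Levels are in FPKM, the fragments of a gene scaled by its transcript length in kilobases and by each 1000000 fragments mapped, which lets genes be set side by side. A gene was tested when it reached 1 FPKM in at least 3 libraries. Of the 10 factors 7 did so, each of them in all 6 libraries and thus in both groups. Differences were tested with limma on log2(FPKM + 1) over all 10281 genes that passed the filter. Their p-values were adjusted by Benjamini-Hochberg and called under 0.05. Log2 fold changes are on that scale, which understates the change of low genes. Of the 7 tested factors 5 were called, and among all genes tested 54.7% were. In 5 of the 7 all IR libraries lay below all Ctrl libraries, which was so for 32.5% of all genes tested, and in 0 all IR libraries lay above, against 29.1%; either direction made up 61.7%. The median log2 fold change was -0.26 over the 7 factors and -0.01 over all genes tested. In bulk samples, fewer cells of a type and less RNA per cell cannot be told apart.

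**Figure D1:**
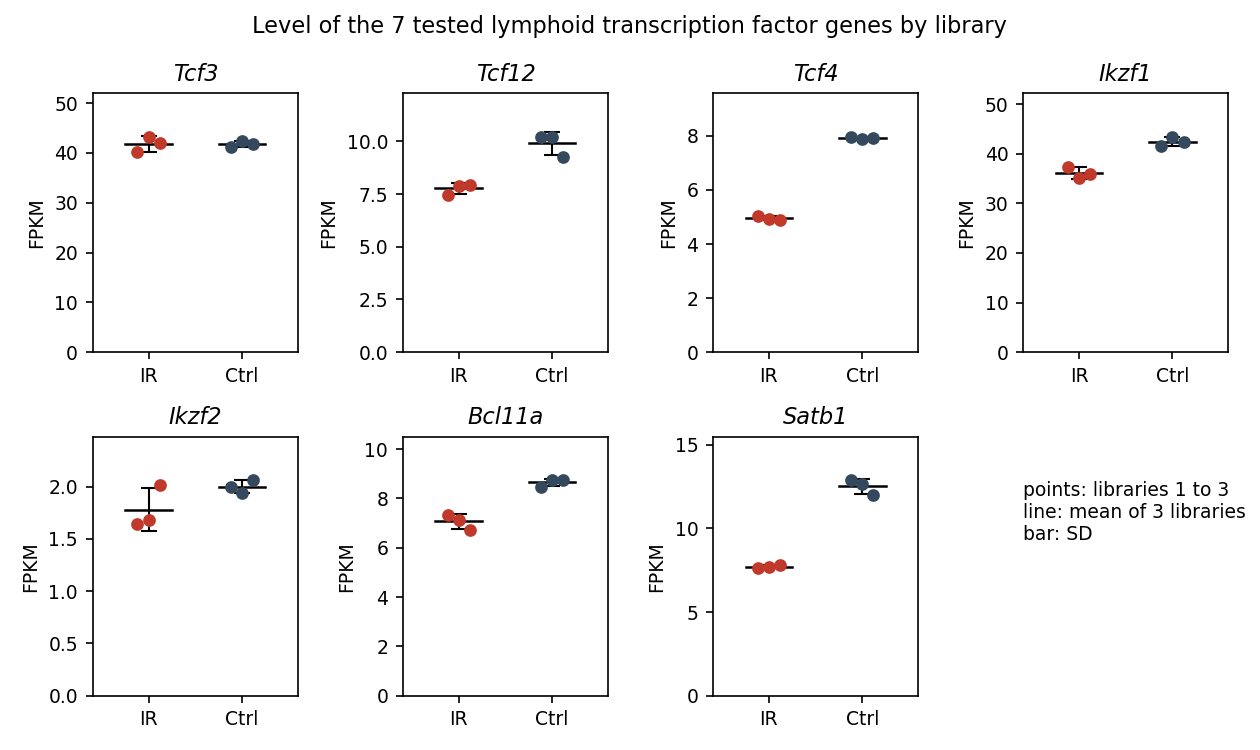
FPKM of the 7 tested genes in each of the 3 IR libraries (left) and 3 Ctrl libraries (right), with the mean and SD of each group; each axis starts at 0. Satb1, Tcf4, Tcf12, Bcl11a and Ikzf1 lie lower in every IR library than in any Ctrl library, while the groups of Tcf3 and Ikzf2 overlap.

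Among the E proteins, Tcf4 (also known as E2-2, the E protein that plasmacytoid dendritic cells depend on) was at 5.03, 4.94 and 4.91 FPKM in IR libraries 1 to 3, against 7.97, 7.90 and 7.92 FPKM in Ctrl libraries 1 to 3. The groups were well apart, and within each group the libraries differed by little. Tcf4 had a log2 fold change of -0.58 (SE 0.044, 95% interval -0.68 to -0.49; limma Benjamini-Hochberg adjusted p = 3.82e-06). The gene lies on chromosome 18. Among all genes tested, 2.66% had a lower log2 fold change than Tcf4, and among the 500 genes nearest to it in level 3.2% did.

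Tcf12 (HEB, an E protein of T cell development; chromosome 9, 71842688 to 72111871, GRCm38) was at 7.45, 7.90 and 7.95 FPKM in IR libraries, against 10.2, 10.2 and 9.26 FPKM in Ctrl libraries. Every IR library was below every Ctrl library, although Ctrl library 3 was lower than the other Ctrl libraries. The log2 fold change was -0.31 (SE 0.051, limma Benjamini-Hochberg adjusted p = 5.33e-04), the means being 7.77 ± 0.273 FPKM in IR and 9.90 ± 0.553 FPKM in Ctrl (SD, n = 3 each).

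Tcf3 (E2A, which encodes E12 and E47 and is needed for B lymphopoiesis; chromosome 10, 80409514 to 80433647) was at 40.1, 43.3 and 42.0 FPKM in IR libraries, against 41.1, 42.3 and 41.8 FPKM in Ctrl libraries. The groups overlapped, with the highest and the lowest value both in IR. Tcf3 was not called, with a log2 fold change of 0.001 (95% interval -0.074 to 0.076; limma Benjamini-Hochberg adjusted p = 0.981).

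Tcf3 made up a larger share of the E protein RNA in IR HSCs, and Tcf4 and Tcf12 a smaller one. The summed FPKM of Tcf3, Tcf4 and Tcf12 was 52.6, 56.1 and 54.9 in IR libraries, against 59.3, 60.4 and 59.0 in Ctrl libraries, and the groups did not overlap. The mean sum in IR was 0.915 times that in Ctrl. Tcf4 made up 9.58%, 8.81% and 8.94% of the sum in IR libraries, against 13.4%, 13.1% and 13.4% in Ctrl libraries. Tcf12 made up 14.2 ± 0.209% in IR and 16.6 ± 0.811% in Ctrl, and Tcf3 76.6 ± 0.438% in IR and 70.1 ± 0.780% in Ctrl (SD, n = 3 each). These shares are within a library and do not depend on how libraries are scaled. They are descriptions with no test and do not show which isoforms or how much protein the cells held.

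Of the 4 Id genes, whose proteins block E proteins, Id1 and Id2 were tested and both fell. Id2 was at 16.1, 18.6 and 16.0 FPKM in IR libraries, against 26.002, 23.8 and 25.3 FPKM in Ctrl libraries, a log2 fold change of -0.54 (SE 0.057, limma Benjamini-Hochberg adjusted p = 3.26e-05). Id1 was at 4.04 ± 0.401 FPKM in IR and 5.95 ± 0.468 FPKM in Ctrl (SD, n = 3 each; log2 change of -0.46, limma Benjamini-Hochberg adjusted p = 3.90e-04). Neither gene's groups overlapped. Id3 stayed under 1 FPKM, at 0.532, 0.213 and 0.585 FPKM in IR and 0.781, 0.710 and 0.655 FPKM in Ctrl. Id4 was at 0.115, 0.245 and 0.252 FPKM in IR and listed at 0 in all Ctrl libraries. The 4 Id genes together stood at 0.387, 0.415 and 0.385 times the E protein sum in IR libraries, against 0.551, 0.497 and 0.549 times in Ctrl libraries. The ratio of Id RNA to E protein RNA was thus lower in every IR library, with a mean 0.743 times that of Ctrl.

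**Figure D2:**
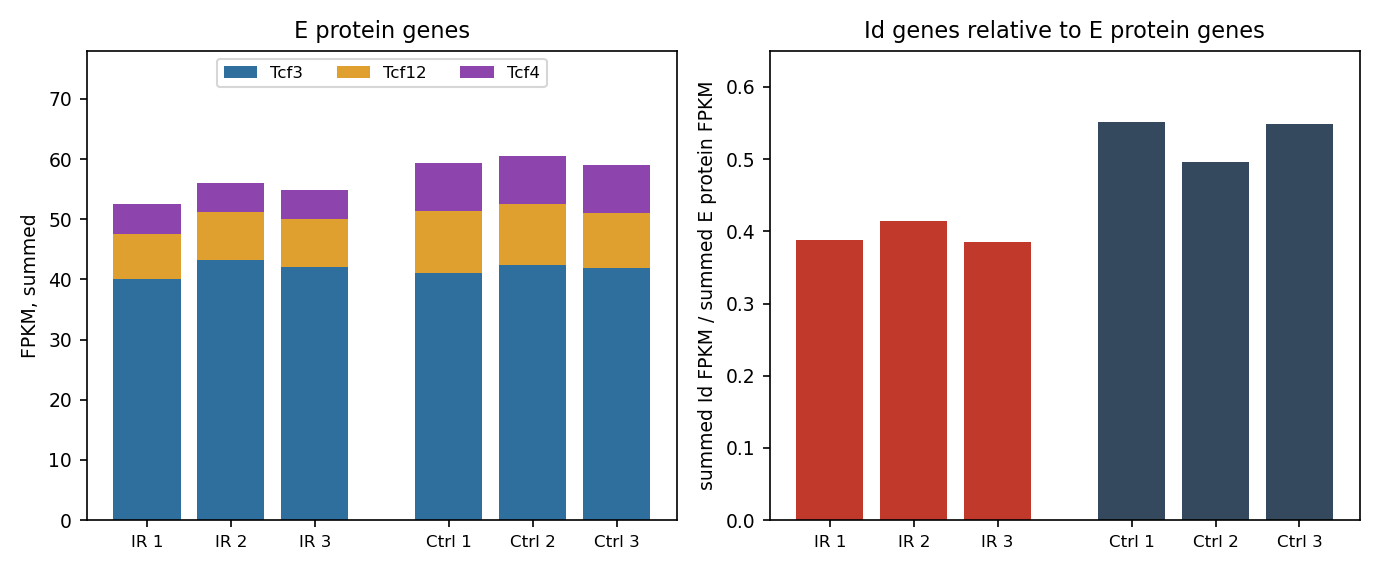
Left, FPKM of Tcf3, Tcf12 and Tcf4 stacked for each library, IR libraries first; right, the summed FPKM of Id1 to Id4 divided by the summed FPKM of the 3 E protein genes in the same libraries. The Tcf3 part is about as tall in IR as in Ctrl, the Tcf4 part is thinner in IR, and the Id ratio is 0.385 to 0.415 in IR and 0.497 to 0.551 in Ctrl.

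Of the other partners and inhibitors of E proteins on the list, counting Id1 and Id2, 5 of 14 tested genes fell, 4 rose and 5 had no call. Among all genes tested 28.9% fell and 25.8% rose. The median log2 fold change of the list was 0.02. Lmo2, the LIM-domain bridge of the SCL complex in which E proteins pair with Tal1 or Lyl1, fell to 277.9 ± 6.11 FPKM in IR, against 312 ± 4.16 FPKM in Ctrl. Lyl1 fell to 92.1 ± 0.772 FPKM in IR, against 103 ± 1.11 FPKM in Ctrl, and Kat2a, a histone acetyltransferase, rose to 24.4 ± 0.803 FPKM in IR, against 19.96 ± 0.471 FPKM in Ctrl (SD, n = 3 each). Ldb1, the adaptor of the same complex, was not called, with a log2 fold change of 0.07.

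In the Ikaros family, Ikzf1 (Ikaros itself; chromosome 11, 11685003 to 11772926) was at 37.3, 35.1 and 36.0 FPKM in IR libraries, against 41.5, 43.4 and 42.3 FPKM in Ctrl libraries. All IR libraries were lower, by a small margin relative to the level. The log2 fold change was -0.23 (SE 0.033, 95% interval -0.30 to -0.15; limma Benjamini-Hochberg adjusted p = 2.73e-04), and the mean in IR was 85.1% of that in Ctrl. Among all genes tested 16.1% had a lower log2 fold change than Ikzf1.

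Ikzf2 (Helios, known from regulatory T cells and also from HSCs; chromosome 1, 69531214 to 69687245) was at 1.64, 1.68 and 2.02 FPKM in IR libraries, against 1.99, 1.94 and 2.06 FPKM in Ctrl libraries. IR library 3 lay among the Ctrl libraries, so the groups overlapped. Ikzf2 was not called (log2 fold change of -0.11, 95% interval -0.26 to 0.04; limma Benjamini-Hochberg adjusted p = 0.192). It was the lowest of the tested factors.

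Ikzf3 (Aiolos, a factor of maturing B cells; chromosome 11, 98464902 to 98546031) was listed at 0.0844, 0.110 and 0.113 FPKM in IR libraries, against 0.1001, 0.136 and 0.113 FPKM in Ctrl libraries. With the depth estimated from the spacing of low values, this is about 6.14 to 7.52 fragments per library in IR and 6.82 to 10.2 in Ctrl, if they fall on the longest annotated transcript of 4.61 kb. A difference was not detectable at this depth. Ikzf1 made up 95.04 ± 0.593% of the summed FPKM of Ikzf1, Ikzf2 and Ikzf3 in IR and 95.25 ± 0.168% in Ctrl (SD, n = 3 each). The sum itself was 39.0, 36.8 and 38.1 FPKM in IR and 43.6, 45.5 and 44.5 FPKM in Ctrl. It leaves out Ikzf4 and Ikzf5, family members on the list of other lymphoid factors. Ikzf4 was under the filter. Ikzf5 rose to 7.90 ± 0.127 FPKM in IR, against 6.20 ± 0.210 FPKM in Ctrl, a log2 fold change of 0.31, with no overlap between groups.

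Ikaros factors are known to bind corepressor subunits of NuRD and of the SIN3 and CtBP corepressors. Of 17 such subunits tested 7 were called, whereas among all genes tested 54.7% were. Of the 17 tested 3 fell, 4 rose and 10 had no call, against 28.9% falling and 25.8% rising among all genes tested. The median log2 fold change of the list was -0.04. The deacetylase Hdac1 fell to 174 ± 0.800 FPKM in IR, against 185 ± 3.39 FPKM in Ctrl, whereas its paralog Hdac2 rose to 143 ± 1.61 FPKM in IR, against 128 ± 2.51 FPKM in Ctrl (SD, n = 3 each). The NuRD subunit Gatad2a rose by 0.24 on the log2 scale and the scaffold Sin3a by 0.24 as well. Rbbp7, a histone-binding subunit, and Ctbp1 were not called, at log2 fold changes of -0.04 and -0.04.

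Satb1 (chromosome 17, 51736187 to 51833290) had the largest change of the 7 tested factors. It was at 7.63, 7.70 and 7.81 FPKM in IR libraries, against 12.9, 12.7 and 11.97 FPKM in Ctrl libraries. The gap between the groups was several times the spread within either. The log2 fold change was -0.63 (SE 0.043, 95% interval -0.73 to -0.54; limma Benjamini-Hochberg adjusted p = 2.06e-06), and 2.12% of all genes tested had a lower one. Satb1 stood at 0.205, 0.220 and 0.217 times the level of Ikzf1 in IR libraries, against 0.310, 0.291 and 0.283 times in Ctrl libraries, so it was lower in IR relative to Ikzf1 as well.

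Bcl11a (chromosome 11, 24078056 to 24174123) was at 7.35, 7.14 and 6.72 FPKM in IR libraries, against 8.47, 8.74 and 8.74 FPKM in Ctrl libraries. The groups did not overlap, with the Ctrl libraries close together. The log2 fold change was -0.26 (SE 0.047, limma Benjamini-Hochberg adjusted p = 0.00103), and the mean in IR was 81.7% of that in Ctrl.

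**Figure D3:**
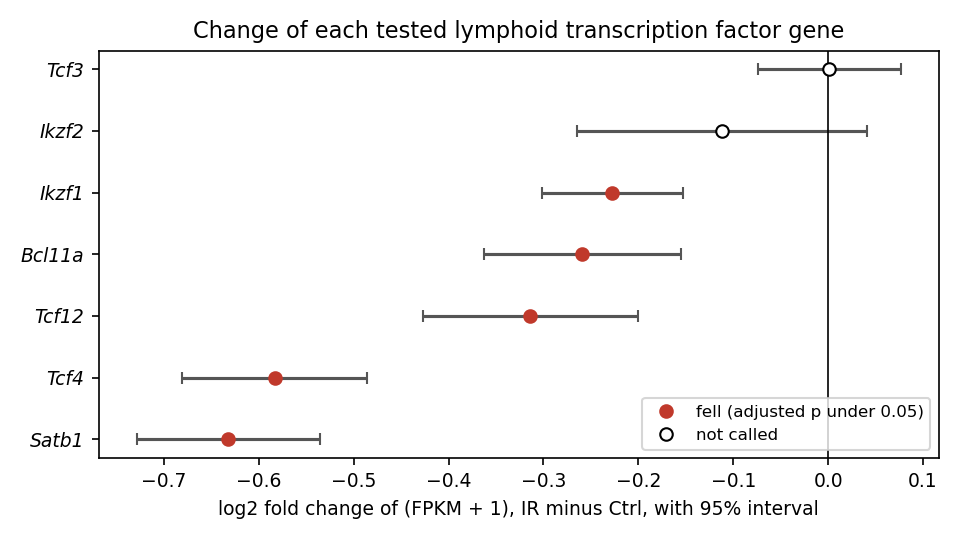
Log2 fold change of (FPKM + 1), IR minus Ctrl, of the 7 tested genes with its 95% interval, filled where the gene fell at an adjusted p under 0.05. Satb1 at -0.63 and Tcf4 at -0.58 stand apart from Tcf12, Bcl11a and Ikzf1 at -0.31 to -0.23, and the intervals of Ikzf2 and Tcf3 hold 0.

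Ebf1 (chromosome 11, 44617317 to 45008091) was listed at 0.0447, 0.0358 and 0.0123 FPKM in IR libraries, against 0.0119, 0.0108 and 0.0367 FPKM in Ctrl libraries. On its longest transcript of 5.98 kb these values correspond to about 1.06 to 4.23 fragments in IR and 1.06 to 3.16 in Ctrl. The levels overlapped and no difference was detectable at this depth.

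Lef1 (chromosome 3, 131110471 to 131224356) was listed at 0.0601, 0 and 0.0165 FPKM in IR libraries, against 0.0641, 0.102 and 0.0986 FPKM in Ctrl libraries. On its longest transcript of 3.66 kb the largest value corresponds to about 6.08 fragments. The IR values were below the Ctrl values by margins of a few fragments or less, and the gene was not tested.

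Of the other genes that work with LEF and TCF factors, 11 were tested: 4 of them rose, 2 fell and 5 had no call. Among all genes tested 28.9% fell and 25.8% rose. The median log2 fold change of the list was 0.08. Ctnnb1, which encodes beta-catenin, rose to 125.9 ± 2.65 FPKM in IR, against 116 ± 1.62 FPKM in Ctrl. Aes, a short Groucho-related protein, rose to 99.99 ± 2.29 FPKM in IR, against 78.4 ± 3.33 FPKM in Ctrl, and Pygo2, a coactivator of beta-catenin, to 13.1 ± 0.821 FPKM in IR, against 10.8 ± 0.513 FPKM in Ctrl (SD, n = 3 each). Tle4, a Groucho corepressor, was not called, with a log2 fold change of 0.10.

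In order of level, the 10 factors spanned from about 42 FPKM to a few hundredths of 1 FPKM. In IR HSCs the order was Tcf3, Ikzf1, Tcf12, Satb1, Bcl11a, Tcf4, Ikzf2, Ikzf3, Ebf1 and Lef1, and the ranges of Tcf12 and Satb1 and of Ebf1 and Lef1 overlapped. In Ctrl HSCs the order was Ikzf1, Tcf3, Satb1, Tcf12, Bcl11a, Tcf4, Ikzf2, Ikzf3, Lef1 and Ebf1, and the ranges of Ikzf1 and Tcf3 and of Ikzf3 and Lef1 overlapped. Tcf3 was 1.16 ± 0.080 times Ikzf1 in IR and 0.984 ± 0.009 times in Ctrl (SD, n = 3 each). Among tested genes Tcf3 lay between the 75.99 and 77.4 percentiles in all libraries, and Ikzf2 between the 8.10 and 11.4 percentiles.

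The factors also differ in the length of their genes, from 24.1 kb for Tcf3 to 391 kb for Ebf1 in GENCODE M21, and 4 of the 10, Ikzf1, Ikzf3, Bcl11a and Ebf1, lie on chromosome 11. Tcf3, which was not called, has the shortest gene, and Tcf4 and Tcf12 span 346 and 269 kb. Over all tested protein-coding genes that matched by symbol (9899, or 96.3%), the 280 genes over 200 kb had a median log2 fold change of -0.05, with 31.4% falling and 16.1% rising. The 2852 genes of 10 to 25 kb had a median of -0.01, with 31.0% falling and 28.1% rising. Satb1, at 97.1 kb, stands among 1427 genes of 50 to 100 kb whose median was 0.001. The part of gene length in the changes of the factors was not tested.

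Of the 24 other lymphoid transcription factors on the list, 14 were tested and 10 were under the filter. Of the 14 tested 7 fell, 2 (Myb and Ikzf5) rose and 5 stayed uncalled, against 28.9% falling and 25.8% rising among all genes tested. The median log2 fold change of the list was -0.11. Mef2c, a factor of lymphoid priming, was at 23.1, 22.5 and 22.5 FPKM in IR libraries, against 31.9, 31.6 and 30.9 FPKM in Ctrl libraries (log2 fold change of -0.45, limma Benjamini-Hochberg adjusted p = 2.24e-06). Irf8, a factor of dendritic, monocytic and B cells, was at 38.4, 38.6 and 35.4 FPKM in IR libraries, against 52.0, 50.7 and 51.7 FPKM in Ctrl libraries (-0.45). Both were lower in every IR library. Hhex, a homeobox factor needed for lymphoid progenitors, fell to 145 ± 5.30 FPKM in IR, against 181 ± 3.95 FPKM in Ctrl, and Myb rose to 171 ± 3.17 FPKM in IR, against 158 ± 3.83 FPKM in Ctrl (SD, n = 3 each). Sox4 was not called, with a log2 fold change of 0.01.

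Most of the tested genes on the list of known targets of E proteins, Ikaros or EBF1 fell. Of 18 tested 16 fell, 1 rose and 1 was not called, against 28.9% falling and 25.8% rising among all genes tested. The median log2 fold change was -0.79, and 6 more were under the filter. Rag2 and Il7r, both counted as falling, passed the filter through the Ctrl libraries alone. Rag2 averaged 0.851 FPKM in IR and 2.24 FPKM in Ctrl, and Il7r 0.708 FPKM in IR and 1.63 FPKM in Ctrl. Among the most abundant targets, Dntt, the terminal transferase, had a log2 fold change of -1.28, Flt3 of -0.92 and Cd52 of -0.78. The gate took cells without Flt3 and CD48 protein and with CD150, and RNA of the genes for the excluded proteins was present in every library. Flt3 RNA was at 65.7 ± 1.43 FPKM in IR and 125 ± 1.58 FPKM in Ctrl, and Cd48 RNA at 352 ± 8.003 FPKM in IR and 400.1 ± 3.36 FPKM in Ctrl. Slamf1, the gene for CD150, was at 5.06 ± 0.443 FPKM in IR and 3.57 ± 0.409 FPKM in Ctrl (SD, n = 3 each). The targets whose promoters are printed above did not all move alike, and they are described here for those promoters and not for their change. Blnk, the B cell linker protein, was at 1.75, 1.74 and 1.53 FPKM in IR libraries, against 5.55, 5.57 and 5.85 FPKM in Ctrl libraries. Igll1, a surrogate light chain component, was at 0.801, 1.24 and 1.28 FPKM in IR libraries, against 4.12, 4.59 and 2.79 FPKM in Ctrl libraries. Both fell (log2 fold changes of -1.32 and -1.19), with no overlap between groups. Vpreb1, the other surrogate light chain component, which has a near-identical copy in Vpreb2, was at 2.23, 2.29 and 2.18 FPKM in IR libraries, against 3.70, 3.44 and 4.24 FPKM in Ctrl libraries (-0.57). Cd79a, a signalling chain of the B cell receptor, was at 8.88, 8.77 and 8.34 FPKM in IR libraries, against 6.22, 7.74 and 7.26 FPKM in Ctrl libraries. It was the 1 target that rose (log2 fold change of 0.26, limma Benjamini-Hochberg adjusted p = 0.00757), whereas Cd79b, the other chain, fell to 47.1 ± 0.279 FPKM in IR, against 64.9 ± 4.68 FPKM in Ctrl (SD, n = 3 each).

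**Figure D4:**
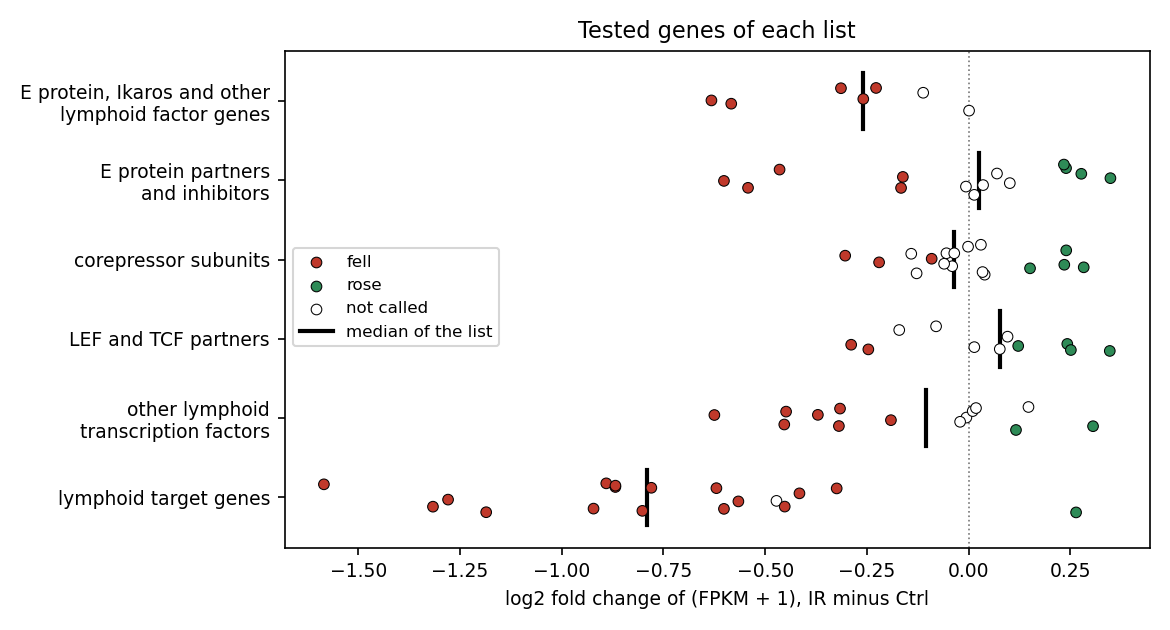
Log2 fold change of (FPKM + 1), IR minus Ctrl, of each tested gene in 6 lists, with points coloured by call, spread vertically for legibility, and a bar at the list's median. The lymphoid target genes centre at -0.79 and the factors at -0.26, while the partners, corepressor subunits and LEF and TCF partners centre near 0.

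Markers of other cell types moved between the groups too, where 28.9% of all genes tested fell and 25.8% rose. The part of these markers in the changes of the factors was not tested. Of 10 B cell markers 3 reached the filter, and Pax5, Cd22, Cr2 and Fcer2a were under 0.5 FPKM in every library. Of the 3, Cd79a and Fcrla rose and Cd79b fell, with a median log2 fold change of 0.26, while the summed level of the list, most of it Cd79b, was 57.9 to 59.4 FPKM in IR and 73.2 to 79.7 FPKM in Ctrl. Of 12 T and NK cell markers 3 reached it, with Cd3g and Cd8b1 listed at 0 in every library. Nkg7 rose, and Klrb1c and Cd4 fell, with log2 fold changes of -0.60 and -0.92. Cd4 was at 0.229, 0.339 and 0.116 FPKM in IR libraries, against 1.41, 1.03 and 1.55 FPKM in Ctrl libraries. It passed the filter through the Ctrl libraries alone, so its fall carries little weight. The sum was 648 to 657 FPKM in IR and 529.8 to 553 FPKM in Ctrl, of which Nkg7 made up 648 ± 4.25 FPKM in IR and 535 ± 11.8 FPKM in Ctrl (SD, n = 3 each). Of 10 plasmacytoid dendritic cell markers, the cells in which Tcf4 is the lineage factor, 5 reached the filter, 4 fell and 0 rose. Siglech, counted as falling, also passed through the Ctrl libraries alone, with means of 0.436 FPKM in IR and 1.35 FPKM in Ctrl. The sum of the list was 155 to 161 FPKM in IR and 202 to 211 FPKM in Ctrl, and Klk1 was listed at 0 throughout. In that list, which shares Irf8 and Ly6d with the factor and target lists, Cox6a2 and Ly6d had log2 fold changes of -1.33 and -1.58, whereas Bst2 was not called.

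The markers of erythroid, megakaryocytic and myeloid cells rose or fell as follows, where 28.9% of all genes tested fell and 25.8% rose. Erythroid markers rose in 6 of 8 tested cases, with a sum of 102 to 109 FPKM in IR and 72.1 to 78.7 FPKM in Ctrl. Ermap, counted as rising, passed the filter through the IR libraries alone, with means of 1.48 FPKM in IR and 0.240 FPKM in Ctrl. Only Slc4a1 of the 10 stayed under 0.5 FPKM in every library. Megakaryocyte markers rose in 6 of 8, with a sum of 243 to 256 FPKM in IR and 186 to 191 FPKM in Ctrl, and Gp6 was listed at 0 in every library. Neutrophil and monocyte markers fell in 8 of 12 cases and rose in 3, Ctsg, Elane and Prtn3. Ltf, counted as falling, passed the filter through the Ctrl libraries alone, with means of 0.739 FPKM in IR and 1.57 FPKM in Ctrl. The sum of the list, most of it from the 3 that rose, was 4030 to 4178 FPKM in IR and 3740 to 3785 FPKM in Ctrl. HSC and sort markers fell in 6 of 11 cases and rose in 2 (Slamf1 and Gata2), with Kit not called (log2 fold change -0.01). Their sum was 751 to 761 FPKM in IR and 905 to 915 FPKM in Ctrl. It includes Flt3 and Cd48, whose proteins the gate excluded and whose RNA fell. Flt3 averaged 65.7 FPKM in IR and 125 FPKM in Ctrl, and Cd48 352 FPKM in IR and 400.1 FPKM in Ctrl. Ly6a and Procr fell as well, to 157 and 12.6 FPKM in IR, against 203 and 19.2 FPKM in Ctrl.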

How the data were processed

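RNA-seq of sorted mouse bone marrow HSCs was analysed in 6 libraries. The authors deposited 1 table of FPKM per library, made with fastp, HISAT2 and StringTie on GRCm38 (mm10), per the submitters' processing notes; the sources used here give no versions, annotation, settings or strand handling. The values themselves gave the unit. Of 21878 entries 27 carried a date in place of a symbol and were left out. Libraries summed to 485166 to 489838 FPKM. The spacing of low values in single-transcript genes, of which 24.5% to 28.2% lay within 0.01 of a whole multiple, gave about 14400000 to 16300000 fragments per library; fragment numbers are approximate and cover counting error only.

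Genes reaching 1 FPKM in 3 or more libraries were tested with limma 3.58.1 (R 4.3.3; trend, 2-sided, no block) on log2(FPKM + 1), and the method was tested on simulated data. Gene lists are described by counts and medians. All 10 factors were named, and of each list the 4 tested genes of highest mean level and the 3 of smallest p. Not all of the genes so chosen are reported here. Further genes, such as Ikzf5, Ermap and Ltf, are given as limits on a count or a sum. The factors and lists were chosen with earlier results of these data known. Alternatives were other pseudocounts, filters, scalings, no trend, a replicate block and leaving out each library.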

Additional observations from a re-analysis of the deposited data

How the results depend on the processing

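Under each of 15 alternatives (pseudocounts of 0.1 and 5, no filter, a filter of 5 FPKM, rescaling to TPM, median-of-ratios scaling, quantile normalization, no trend, the replicate block, and leaving out each library), 5 of the factors were called and all 5 fell. The log2 fold change ranged from -0.69 to -0.46 for Satb1, -0.67 to -0.38 for Tcf4, -0.36 to -0.22 for Tcf12, -0.29 to -0.18 for Bcl11a and -0.25 to -0.21 for Ikzf1; Ikzf2 was not called in the 14 alternatives that tested it. Tcf3 was never called, and leaving out single libraries turned its sign, with values from -0.024 to 0.030. Sox4 (-0.041 to 0.043) and Kit (-0.027 to 0.0019), not called either, turned sign without IR replicate 2 and without IR replicate 3 in turn. Over these alternatives the named genes other than the factors gave 773 values, of which 5, all of Prtn3, lost a call, 3 (Rbbp7, Tle4 and Bst2) gained one and 2 turned sign as above; the cause was not tested. The lists moved more. With the 5 FPKM filter, which tests fewer genes, 3 of the other lymphoid factors fell and their median log2 fold change turned to 0.014; 1 of the E protein partners rose and their median turned to -0.16; 0 of the LEF and TCF partners and 8 of the targets fell. With no filter the median of the LEF and TCF partners turned to -0.03. The median of the targets was -0.41 with a pseudocount of 5 and -0.98 with 0.1. The median of the B cell markers turned to -0.10 with no filter, -0.09 with the 5 FPKM filter and -0.08 as TPM, and that of the T and NK markers to 0.28 with the 5 FPKM filter. As TPM 4 of the other lymphoid factors rose. The count of genes called was 4381 to 6487. Same-numbered libraries showed no shared deviation over all genes tested (correlations 0.009, -0.031 and -0.049). This cannot exclude a pairing whose effects are small or limited to few genes. With the replicate block 5379 genes were called. Depth limits Ikzf3, Ebf1 and Lef1.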
